A study of Mus musculus with 19 samples.

Results

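The genes of retinoic acid synthesis, binding and response were followed across 7 groups of mouse embryonic kidney cells. The 9 genes, Aldh1a1, Aldh1a2, Aldh1a3, Rdh10, Dhrs3, Crabp1, Crabp2, Cyp26b1 and Rarb, were taken by gene symbol from the 24486 symbols of the 2 deposited expression tables, and each table held all 9. All embryos were of the CFW strain, and poly(A) RNA was sequenced in 19 libraries. At E16.5 (E gives the embryonic day), SIX2+ and SIX2- cells were separated within the nephrogenic zone, the outer rim of the kidney where nephrons form, and unsorted nephrogenic zone cells (NZC) were sequenced beside them. These 9 libraries (3 per group) are titled MARIS, a protocol that sorts cells by staining inside the cell before RNA is isolated, and their allele is given as not applicable. Also at E16.5, cells of Six2TGC/+ kidneys were sorted into GFP+ and GFP- (3 libraries each), so both of these groups carried 1 copy of the Six2-driven GFP and Cre allele. At E14.5, Tdt+ and Tdt- cells were sorted from Foxd1Cre;Tdt kidneys (2 libraries each). There the red label marks cells with a history of Foxd1, whether or not they still express it. The study set nephron progenitors, which express Six2, against stromal progenitors, which express Foxd1. Whether each library had its own litter or animal is not stated in the labels. The p-values therefore measure spread between libraries, and part of it may be technical.

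Retinoic acid is made from vitamin A. RDH10 oxidises retinol to retinal, DHRS3 reduces retinal back to retinol, and the ALDH1A enzymes oxidise retinal irreversibly to retinoic acid. CRABP1 and CRABP2 bind retinoic acid in the cytoplasm, CYP26 enzymes degrade it, and the nuclear receptors RARA, RARB and RARG, paired with RXR partners, switch target genes with it. In the embryonic kidney, stromal cells are known as a source of retinoic acid, and signalling through its receptors maintains Ret in the ureteric bud.

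Values are RPKM, that is, reads per kilobase of gene model scaled to library depth, which can be compared between genes. Estimated depth ran from 26100000 to 45700000 reads in the E16.5 libraries other than NZC library 2, which had 3080000, and from 8450000 to 30600000 in the E14.5 libraries. NZC library 2 also stood apart in Malat1 (683 RPKM) and Rn45s (762 RPKM), a nuclear and a ribosomal transcript. Six2 was at 295 to 458 RPKM in SIX2+ libraries and 4.43 to 46.8 RPKM in SIX2- libraries, at 312 to 348 RPKM in GFP+ and 2.7 to 16.8 RPKM in GFP- libraries, and at 0.65 to 2.14 RPKM in Tdt+ and 96.6 to 117 RPKM in Tdt- libraries. Foxd1 was at 102 and 205 RPKM in Tdt+ libraries and at 25.2 and 29.9 RPKM in Tdt- libraries. The sorted groups thus matched their labels in every library. At E16.5 Foxd1 was lower in the progenitor fractions but not absent from them. It was at 16 to 30.6 RPKM in SIX2+ and 51.4 to 103 RPKM in SIX2- libraries, and at 28.6 to 44.3 RPKM in GFP+ and 62.5 to 103 RPKM in GFP- libraries. Fold changes below are log2 differences of RPKM + 1 with standard errors, tested with limma across all genes of a table, and a gene is called where its Benjamini-Hochberg adjusted p is under 0.05.

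Nephron progenitors had less RNA than the cells sorted away from them for 6 (SIX2+) or 4 (GFP+) of the 9 retinoic acid genes, and cells of the Foxd1 lineage had more for 5. In SIX2+ against SIX2- cells 7 of the 9 genes were called, 6 of them lower (Crabp1, Dhrs3, Aldh1a2, Rarb, Cyp26b1 and Aldh1a1) and 1 higher (Rdh10). In that comparison 24.3% of all genes tested were called, 8.37% higher and 15.9% lower. In GFP+ against GFP- cells 5 of the 9 were called, Crabp1, Dhrs3, Rarb and Cyp26b1 lower and Rdh10 higher, where 32.9% of all genes were called, 15.9% higher and 17.0% lower. In Tdt+ against Tdt- cells 5 of the 7 genes that could be tested were called, all higher (Crabp1, Aldh1a2, Crabp2, Dhrs3 and Rarb), where 8.43% of all genes were called, 1.22% higher and 7.21% lower. The median log2 fold change of the genes was -1.16, -0.67 and 1.26 in these comparisons, against medians of 0.04, 0.09 and -0.04 over all genes tested. The libraries are bulk samples, so fewer cells of a type and less RNA per cell cannot be told apart in any of these differences.

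**Figure D1:**
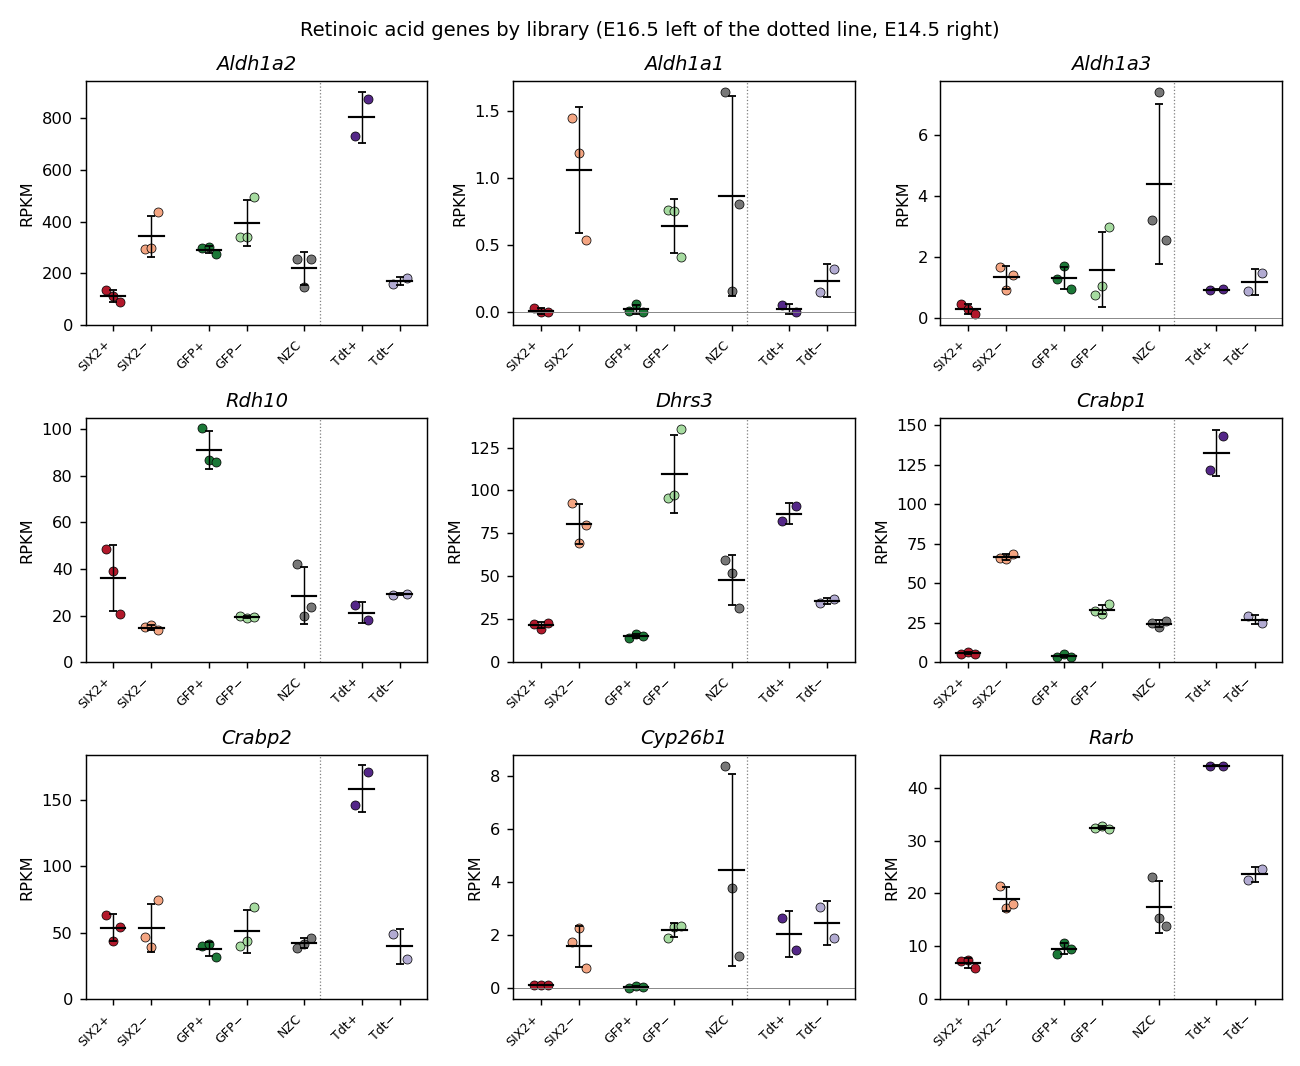
RPKM (y axis, linear) of each of the 9 genes in every library, by group (x axis). Points are libraries, horizontal lines group means and bars ± SD; Aldh1a2 reaches 733 and 874 RPKM in the Tdt+ libraries, whereas Aldh1a1 stays under 2 RPKM in all.

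Aldh1a2 (chromosome 9, 71215789 to 71296243, plus strand, GRCm38 in GENCODE M21) encodes the main enzyme of embryonic retinoic acid synthesis. It had 135, 113 and 86.9 RPKM in SIX2+ libraries, against 294, 297 and 436 RPKM in SIX2- libraries. Every SIX2+ library was below every SIX2- library, and the difference was -1.60 ± 0.24 (adjusted p = 0.000197). GFP+ libraries had 297, 303 and 275 RPKM, against 341, 342 and 496 RPKM in GFP- libraries. These groups did not overlap either, but the difference was not called (-0.41 ± 0.24, 95% interval -0.93 to 0.11, adjusted p = 0.22). At E14.5 the labelled cells were those of the Foxd1 lineage, and they had more: Tdt+ libraries had 733 and 874 RPKM, against 159 and 181 RPKM in Tdt- libraries (2.23 ± 0.35, adjusted p = 0.00798). The unsorted NZC libraries had 254, 146 and 257 RPKM. From lowest to highest, the E16.5 group means ran SIX2+, NZC, GFP+, SIX2-, GFP-, and the ranges of GFP+ and SIX2- libraries, and of SIX2- and GFP- libraries, overlapped.

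The other members of the family were close to the floor. Aldh1a1 (chromosome 19, 20492715 to 20643465), which makes retinoic acid in the adult and in the eye, was listed at 0.036, 0 and 0 RPKM in SIX2+ libraries, against 1.45, 1.19 and 0.536 RPKM in SIX2- libraries (-1.0 ± 0.26, adjusted p = 0.01). Without SIX2- library 1 this call was lost (-0.86, adjusted p = 0.0553). In GFP+ libraries it was listed at 0.0116, 0.0631 and 0 RPKM, against 0.764, 0.752 and 0.413 RPKM in GFP- libraries (-0.67 ± 0.26, adjusted p = 0.0571). Libraries of the same replicate number paired in this sort, and with the replicate number as a block Aldh1a1 was called (adjusted p = 0.00563); it was also called without NZC library 2 (adjusted p = 0.0097), with only the compared groups fitted (0.0045), with a pseudocount of 0.1 (0.00616), with values rescaled to TPM (0.0167) and with median-of-ratios scaling (0.0472). The block, the fit without NZC library 2 and that of only the compared groups called 53.4%, 44.5% and 40.3% of all genes, against 32.9% in the main fit. A pseudocount of 0.1, TPM and median-of-ratios scaling gave 33.5%, 27.7% and 31.5%. Low values are damped on the RPKM + 1 scale, so the folds of Aldh1a1 understate its ratios. At E14.5 it was under the filter, at 0.0519 and 0 RPKM in Tdt+ and 0.151 and 0.322 RPKM in Tdt- libraries.

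Aldh1a3 (chromosome 7, 66390890 to 66427517), known from the eye and nose, had 0.462, 0.283 and 0.129 RPKM in SIX2+ libraries, against 1.65, 0.91 and 1.41 RPKM in SIX2- libraries. All SIX2+ values were below all SIX2- values, yet the difference was not called (-0.84 ± 0.33, 95% interval -1.55 to -0.13, adjusted p = 0.0826). With the paired replicate numbers as a block it was (adjusted p = 0.00318), as it was without NZC library 2 in the fit (adjusted p = 0.0232), with only the compared groups fitted (0.00646), with a pseudocount of 0.1 (0.0139) and with values rescaled to TPM (0.0281). The block, the fit without NZC library 2 and that of only the compared groups called 52.8%, 32.9% and 33% of all genes, against 24.3% in the main fit. A pseudocount of 0.1 and TPM gave 24.5% and 21.7%. For Aldh1a3, GFP+ libraries had 1.27, 1.68 and 0.949 RPKM and GFP- libraries 0.734, 1.02 and 2.97 RPKM. These ranges overlapped, with a difference of -0.08 (95% interval -0.79 to 0.63) whose sign turned under quantile normalisation (0.28) and without GFP- library 3 (0.28). Unsorted NZC libraries had 3.19, 7.39 and 2.55 RPKM, each above every SIX2+ and SIX2- library. At E14.5 it was too low to test, at 0.899 and 0.942 RPKM in Tdt+ and 0.866 and 1.46 RPKM in Tdt- libraries.

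Summed over the family, Aldh1a2 therefore held 95.1% to 99.9% of the Aldh1a RPKM in every library. The lowest share was that of NZC library 2, which had few reads. The sum was 87.0 to 135 RPKM in SIX2+ and 297 to 438 RPKM in SIX2- libraries, 276 to 304 RPKM in GFP+ and 343 to 499 RPKM in GFP- libraries, and 734 to 875 RPKM in Tdt+ and 160.2 to 183 RPKM in Tdt- libraries. Aldh1a7, a rodent gene next in sequence to Aldh1a1, is described with the other pathway genes, and reads of these near copies may have been split between them.

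Rdh10 (chromosome 1, 16105774 to 16133734, plus strand), whose product catalyses the rate-limiting first oxidation, was the only one of the 9 genes called higher in nephron progenitors. It had 48.5, 39.1 and 20.6 RPKM in SIX2+ libraries, against 14.9, 15.8 and 13.7 RPKM in SIX2- libraries (1.15 ± 0.28, adjusted p = 0.00671). The 3 SIX2+ libraries spread more than 2-fold, but all lay above the SIX2- libraries. GFP+ libraries had 100.5, 86.7 and 86.1 RPKM, against 19.8, 18.9 and 19.4 RPKM in GFP- libraries (2.17 ± 0.28, adjusted p = 3.06e-05). At E14.5 Rdh10 had 24.4 and 18.1 RPKM in Tdt+ libraries and 28.8 and 29.4 RPKM in Tdt- libraries. Both Tdt+ libraries were below both Tdt- libraries, and the difference was not called (-0.45 ± 0.23, adjusted p = 0.304) unless Tdt+ library 1 was left out (-0.66, adjusted p = 0.045). From highest to lowest, the E16.5 group means ran GFP+, SIX2+, NZC, GFP-, SIX2-, with overlapping ranges between SIX2+ and NZC and between NZC and GFP- libraries.

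Dhrs3 (chromosome 4, 144892827 to 144928209, plus strand), which drives the reverse step and is itself induced by retinoic acid, showed the opposite arrangement. It had 22.4, 19.3 and 22.5 RPKM in SIX2+ libraries, against 92.7, 69.3 and 79.9 RPKM in SIX2- libraries (-1.86 ± 0.21, adjusted p = 1.16e-05). It had 14.1, 16.4 and 15 RPKM in GFP+ libraries, against 95.6, 97.4 and 136 RPKM in GFP- libraries (-2.76 ± 0.21, adjusted p = 1.82e-07). Each negative fraction was thus several times higher, and the unsorted NZC libraries (59.6, 51.8 and 31.5 RPKM) lay between SIX2+ and SIX2- cells. In Tdt+ libraries Dhrs3 had 82.0 and 90.9 RPKM, against 34.5 and 36.7 RPKM in Tdt- libraries (1.26 ± 0.22, adjusted p = 0.0124). From lowest to highest, the E16.5 means ran GFP+, SIX2+, NZC, SIX2-, GFP-, and no neighbouring ranges overlapped.

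The ratio of Rdh10 to Dhrs3 within a library does not depend on the library's scaling. It was 2.16, 2.02 and 0.917 in SIX2+ libraries, against 0.161, 0.228 and 0.172 in SIX2- libraries. It was 7.15, 5.27 and 5.73 in GFP+ libraries, against 0.207, 0.194 and 0.142 in GFP- libraries. In both E16.5 sorts the progenitor ratio was above every ratio of the other fraction, while GFP+ and SIX2+ libraries did not overlap each other. At E14.5 it was 0.298 and 0.199 in Tdt+ libraries, against 0.833 and 0.801 in Tdt- libraries, so the Foxd1 lineage had the lower ratio. No test was made on the ratios, since both genes are tested above.

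**Figure D2:**
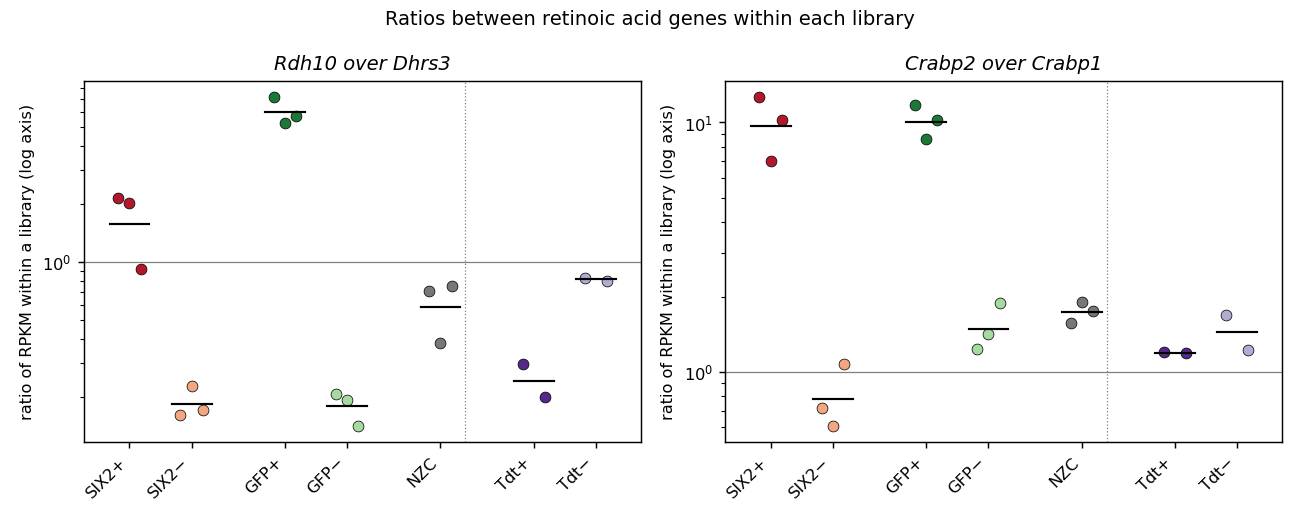
Ratio of Rdh10 to Dhrs3 and of Crabp2 to Crabp1 in RPKM within each library (y axis, log scale), by group. Points are libraries, short lines geometric means and the grey line a ratio of 1; GFP+ libraries sit at 5.27 to 7.15 for Rdh10 over Dhrs3, and SIX2+ and GFP+ libraries at 6.99 to 12.6 for Crabp2 over Crabp1.

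Crabp1 (chromosome 9, 54764748 to 54773110, plus strand), thought to buffer retinoic acid in the cytoplasm, had a large difference in all 3 comparisons of a labelled fraction with the rest. It had 5.06, 6.29 and 5.32 RPKM in SIX2+ libraries, against 65.7, 65.0 and 68.6 RPKM in SIX2- libraries (-3.37 ± 0.14, adjusted p = 1.92e-09). It had 3.43, 4.79 and 3.13 RPKM in GFP+ libraries, against 32.5, 30.6 and 36.7 RPKM in GFP- libraries (-2.85 ± 0.14, adjusted p = 3.3e-09). Replicates were tight, and no progenitor library came near a negative one. In Tdt+ libraries Crabp1 had 122 and 143 RPKM, against 28.9 and 24.7 RPKM in Tdt- libraries (2.27 ± 0.23, adjusted p = 0.0017), and this call was kept without any 1 of the 4 libraries. The NZC libraries had 24.5, 22.1 and 26.3 RPKM. From lowest to highest, the E16.5 means ran GFP+, SIX2+, NZC, GFP-, SIX2-, with no overlap between neighbours.

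Crabp2 (chromosome 3, 87948666 to 87953376, plus strand), which carries retinoic acid to its nuclear receptors, was not called in either E16.5 sort. It had 63.7, 44.0 and 54.2 RPKM in SIX2+ libraries and 47.0, 39.6 and 74.4 RPKM in SIX2- libraries, with a difference of 0.04 ± 0.24 (95% interval -0.46 to 0.55, adjusted p = 0.934). It had 40.2, 41.3 and 32.0 RPKM in GFP+ libraries and 40.3, 43.5 and 69.3 RPKM in GFP- libraries, with a difference of -0.39 ± 0.24 (95% interval -0.90 to 0.12, adjusted p = 0.228). The fractions overlapped in both sorts, and so did the ranges of every pair of neighbours in the order of the E16.5 means. Missing the threshold does not show that the levels were alike. At E14.5 Crabp2 had 146 and 171 RPKM in Tdt+ libraries, against 49.1 and 30.4 RPKM in Tdt- libraries (2.01 ± 0.29, adjusted p = 0.00569). Without Tdt- library 2 that call was lost (1.67, adjusted p = 0.132).

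Set side by side, Crabp2 exceeded Crabp1 by 6.99 to 12.6 times in SIX2+ libraries and by 8.61 to 11.7 times in GFP+ libraries. The ratio was 0.609 to 1.08 in SIX2- and 1.24 to 1.89 in GFP- libraries, 1.57 to 1.9 in NZC libraries, and 1.19 to 1.2 in Tdt+ and 1.23 to 1.69 in Tdt- libraries. Their summed RPKM was 50.3 to 68.8 in SIX2+ and 105 to 143 in SIX2- libraries, 35.1 to 46.1 in GFP+ and 72.8 to 106 in GFP- libraries, and 269 to 314 in Tdt+ and 55.1 to 78.0 in Tdt- libraries. Progenitor libraries thus held less Crabp1 and Crabp2 RNA in sum than their negative fractions, and most of it was Crabp2. Fabp5, another carrier, is not in these sums. It was at 156 ± 17.1 RPKM in SIX2+ and 101 ± 39.7 RPKM in SIX2- cells (0.69 ± 0.25, adjusted p = 0.0622, not called). In the GFP sort it was at 115 ± 30.8 RPKM in GFP+ and 36.5 ± 4.69 RPKM in GFP- cells (SD, n = 3 libraries each).

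Cyp26b1 (chromosome 6, 84571414 to 84593908, minus strand), an enzyme that clears retinoic acid, was low in every group. It had 0.128, 0.122 and 0.119 RPKM in SIX2+ libraries, against 1.73, 2.27 and 0.76 RPKM in SIX2- libraries (-1.16 ± 0.37, adjusted p = 0.0352). This call was lost with a pseudocount of 5 (adjusted p = 0.204), with no filter (0.061), under quantile normalisation (0.294) and without any of the SIX2+ libraries or SIX2- library 1 or 2 (0.0833 to 0.141). GFP+ libraries had 0.0194, 0.1 and 0.0448 RPKM, against 1.89, 2.32 and 2.36 RPKM in GFP- libraries (-1.59 ± 0.37, adjusted p = 0.0045; 0.0514 with a pseudocount of 5). In both sorts every progenitor library was below every library of the other fraction. The unsorted NZC libraries spread widely, at 8.36, 3.78 and 1.23 RPKM, and 2 of the 3 were above every SIX2+ and SIX2- library. At E14.5 the gene had 2.65 and 1.44 RPKM in Tdt+ libraries and 3.06 and 1.89 RPKM in Tdt- libraries. These overlapped (-0.20 ± 0.30, 95% interval -0.90 to 0.50, adjusted p = 0.741), and the sign turned under quantile normalisation (0.24).

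Rarb (chromosome 14, 16430839 to 16819156, minus strand) encodes a retinoic acid receptor that retinoic acid itself induces, and its RNA is widely used as a readout of the pathway. It had 7.25, 7.4 and 5.81 RPKM in SIX2+ libraries, against 21.5, 17.3 and 18.0 RPKM in SIX2- libraries (-1.35 ± 0.17, adjusted p = 3.84e-05). It had 8.59, 10.6 and 9.55 RPKM in GFP+ libraries, against 32.3, 32.8 and 32.2 RPKM in GFP- libraries (-1.66 ± 0.17, adjusted p = 3.87e-06). The fractions did not overlap in either sort, and the NZC libraries, at 23.1, 15.3 and 13.9 RPKM, overlapped the SIX2- libraries. In Tdt+ libraries Rarb had 44.2 and 44.1 RPKM, against 22.6 and 24.6 RPKM in Tdt- libraries (0.88 ± 0.21, adjusted p = 0.0424). That call sat close to the threshold and was lost with values rescaled to TPM (0.67, adjusted p = 0.179), a scaling that moved the median of all genes to -0.29, under quantile normalisation (0.78, adjusted p = 0.0683) and among genes of at least 5 RPKM (adjusted p = 0.0521). From lowest to highest, the E16.5 means ran SIX2+, GFP+, NZC, SIX2-, GFP-, and only NZC and SIX2- ranges overlapped.

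The Rarb promoter is the textbook example of a retinoic acid response element, a direct repeat of a short receptor site. RefSeq promoter windows (GRCm38.p6) matched 6 of the 9 genes, in 9 windows of 300 bases. They were searched on both strands for AGGTCA and for direct repeats of that motif or its variants (AGTTCA and also GGGTCA, as well as GGTTCA) with a spacer of 5, 2 or 1 bases. The 250 bases before the annotated start are shown because they hold the only match among those windows, at chr14:16575477-16575726 (minus strand), with the repeat in capitals, at positions -53 to -37 from the start (16575513 to 16575529):
Rarb: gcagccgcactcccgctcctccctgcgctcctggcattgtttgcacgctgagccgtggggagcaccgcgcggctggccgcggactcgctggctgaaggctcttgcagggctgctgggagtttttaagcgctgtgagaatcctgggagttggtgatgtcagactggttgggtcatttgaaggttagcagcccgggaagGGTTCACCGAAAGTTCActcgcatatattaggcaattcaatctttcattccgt
A repeat with a spacer of 5 bases stood in 32 of the 32851 windows of that table (0.0974%), one with a spacer of 2 in 88 (0.268%), one with a spacer of 1 in 73 (0.222%), and AGGTCA alone in 5340 (16.3%). The repeat found does not overlap an AGGTCA, since no window of the 9 genes holds that motif. A match is a stretch of letters and does not show that a receptor was bound in these cells. The window lies inside the annotated span of Rarb, and RPKM per gene do not separate transcripts that start there from those that start elsewhere.

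**Figure D3:**
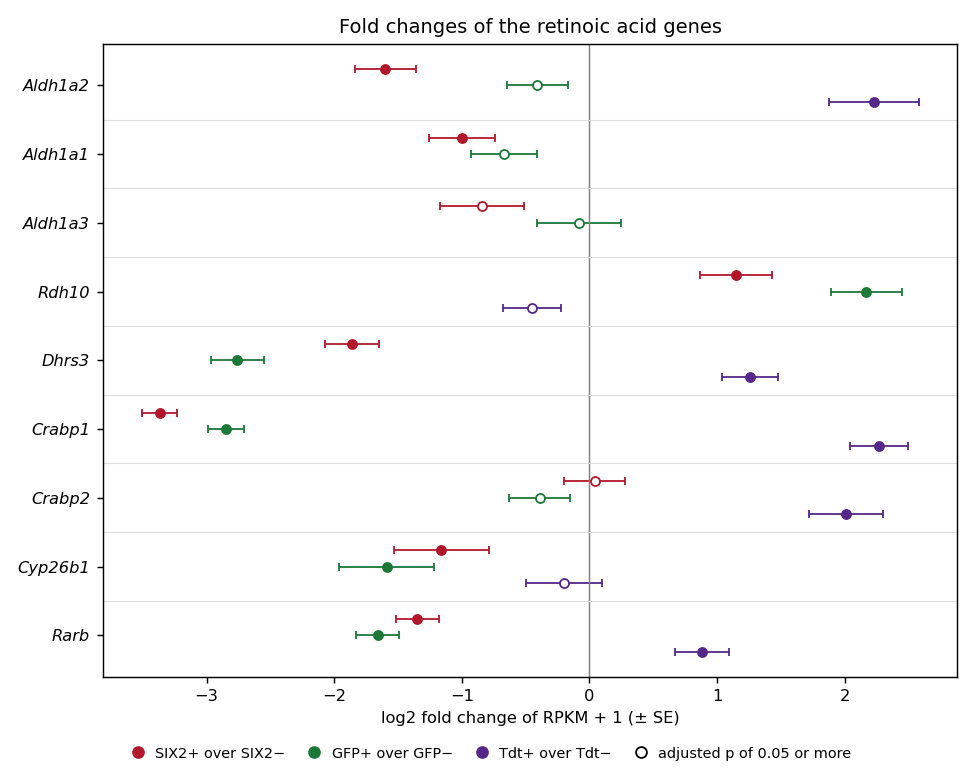
Log2 fold change of RPKM + 1 (x axis, ± SE) of the 9 genes in SIX2+ over SIX2-, GFP+ over GFP- and Tdt+ over Tdt- cells. Filled points were called; Crabp1, Dhrs3 and Rarb lie left of 0 in both E16.5 sorts and right of 0 in the Tdt comparison, whereas Rdh10 is right of 0 in both E16.5 sorts.

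The 2 preparations of progenitors differed in some of these genes. The comparisons share libraries with those above, and the sort with its fixation, the allele and the tissue taken cannot be told apart in them. Which RNA isolation kit each library had is not stated in the labels, so the kit cannot be told apart from these either. Between SIX2+ and GFP+ cells 2 of the 9 genes were called, both lower, where 3.07% of all genes were (0.772% higher and 2.30% lower). Aldh1a2 was at 112 ± 24.0 RPKM in SIX2+ and 292 ± 14.8 RPKM in GFP+ cells (SD, n = 3 libraries each; -1.40 ± 0.24, adjusted p = 0.0061). Rdh10 was at 36.0 ± 14.2 RPKM in SIX2+ and 91.1 ± 8.15 RPKM in GFP+ cells (-1.39 ± 0.28, adjusted p = 0.0126), a call lost without GFP+ library 1 (adjusted p = 0.0768). These 2 synthesis genes were thus called lower in the antibody-sorted progenitors. The other 7 were not called and differed by -0.83 (Aldh1a3, also a gene of synthesis) to 0.49 (Crabp2). Of these, Crabp1 was called higher without NZC library 2 in the fit (0.47, adjusted p = 0.0454) and without GFP+ library 2 (0.61, adjusted p = 0.0253), against an adjusted p of 0.104 with all libraries. Those fits called 7.69% and 3.64% of all genes. Aldh1a3 was called lower with only the compared groups fitted (-0.83, adjusted p = 0.00979), where 6.41% of all genes were called.

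Between the negative fractions, SIX2- and GFP-, 2 of the 9 genes were also called, where 10.1% of all genes were (5.70% higher and 4.42% lower). Crabp1 was at 66.5 ± 1.92 RPKM in SIX2- and 33.3 ± 3.14 RPKM in GFP- cells (SD, n = 3 libraries each; 0.98 ± 0.14, adjusted p = 0.00165). Rarb was at 18.9 ± 2.28 RPKM in SIX2- and 32.4 ± 0.346 RPKM in GFP- cells (-0.75 ± 0.17, adjusted p = 0.0174). The Rarb call was lost without GFP- library 1 or 2 or SIX2- library 2 (adjusted p = 0.0713, 0.0594 and 0.101). With the replicate number as a block, 4 of the 9 were called, where 43.2% of all genes were. SIX2- and GFP- libraries come from 2 preparations, so the block is only an alternative fit. The added genes were Rdh10 (-0.37, adjusted p = 0.0152) and Dhrs3 (-0.43, adjusted p = 0.0362), both lower in SIX2- cells. Rdh10 was also called with only the compared groups fitted and no block (adjusted p = 0.0373), where 21.9% of all genes were.

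Whether the fraction differences themselves differed between the SIX2 and the GFP sort was tested as an interaction. None of the 9 genes was called by limma, where 0.140% of all genes were. The lowest adjusted p-values among the 9 were those of Aldh1a2 (-1.20 ± 0.34, adjusted p = 0.264), Dhrs3 (0.90 ± 0.29, adjusted p = 0.392), Rdh10 (-1.03 ± 0.39, adjusted p = 0.616) and Crabp1 (-0.51 ± 0.20, adjusted p = 0.652). With the replicate number as a block, where 3.27% of all genes were called, 2 of the 9 were: Aldh1a2 (adjusted p = 0.0468) and Dhrs3 (adjusted p = 0.026). That block treats libraries of the same number as matched across the 2 sorts. For SIX2+ and GFP+ libraries the numbers were not taken to pair (correlations of 0.40, -0.02 and 0.58), so the blocked result is only an alternative fit. Whether the sorts were called different in Aldh1a2 and Dhrs3 thus depended on the block.

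Other genes of the retinoid pathway were read from a list. Of 38 listed genes, 25 could be tested at E16.5 and 21 at E14.5. In SIX2+ against SIX2- cells 0 were called higher and 9 lower, where 8.37% of all genes were called higher and 15.9% lower. In GFP+ against GFP- cells 3 were called higher and 8 lower (all genes, 15.9% and 17.0%), and 7 genes were called lower in both. In Tdt+ against Tdt- cells 1 was called higher and 2 lower (all genes, 1.22% and 7.21%). The median log2 fold change over the list was -0.28, -0.27 and 0.22 in these comparisons, against 0.04, 0.09 and -0.04 over all genes tested.

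Among receptors, Rarg was at 2.07 ± 0.232 RPKM in SIX2+ and 18.5 ± 3.64 RPKM in SIX2- cells (-2.65 ± 0.22, adjusted p = 7.56e-07). It was at 1.77 ± 0.328 RPKM in GFP+ and 22.8 ± 2.99 RPKM in GFP- cells (-3.10 ± 0.22, adjusted p = 1.19e-07). Rara was not called in any of the 3 fraction comparisons, and was at 12.5 ± 3.27 RPKM in SIX2+ and 12.7 ± 2.31 RPKM in SIX2- cells and at 11.2 ± 1.59 RPKM in GFP+ and 11.0 ± 1.3 RPKM in GFP- cells. The partner receptor Rxra was called lower in both sorts (-1.25 and -1.51), as was Rxrg (-1.14 and -1.04). Rxrg was the only listed gene called higher in the Foxd1 lineage, at 4.02 ± 1.27 RPKM in Tdt+ and 1.1 ± 0.113 RPKM in Tdt- cells (SD, n = 2 each; 1.23 ± 0.27, adjusted p = 0.0299). Rxrb was higher in GFP+ cells (0.57 ± 0.16, adjusted p = 0.013), at 28.3 ± 3.75 RPKM against 18.7 ± 2.52 RPKM in GFP- cells.

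Among enzymes, Adh1, an alcohol dehydrogenase that can oxidise retinol, was called lower in SIX2+ (-1.76 ± 0.42, adjusted p = 0.00671) and GFP+ cells (-2.38 ± 0.42, adjusted p = 0.000576). Dhrs4, a reductase that acts on retinal, was called lower in SIX2+ cells (-0.69 ± 0.14, adjusted p = 0.00258), and Adh5 was higher in GFP+ cells (0.37 ± 0.13, adjusted p = 0.0363). Aldh1a7 was lower in SIX2+ cells (-1.03 ± 0.23, adjusted p = 0.00421), at 0.0448 to 0.071 RPKM against 0.588 to 1.61 RPKM in SIX2- cells. Fabp5, a second carrier of retinoic acid, was higher in GFP+ cells, at 115 ± 30.8 RPKM against 36.5 ± 4.69 RPKM in GFP- cells (1.60 ± 0.25, adjusted p = 0.00022). In the Foxd1 lineage it was lower, at 17.9 ± 2.32 RPKM in Tdt+ and 55.3 ± 15.1 RPKM in Tdt- cells (-1.55 ± 0.26, adjusted p = 0.0104), against the direction of Crabp1 and Crabp2 there.

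Among genes known to respond to retinoic acid, Tgm2, a transglutaminase, was at 0.457 ± 0.0158 RPKM in SIX2+ and 17.1 ± 3.32 RPKM in SIX2- cells (-3.61 ± 0.25, adjusted p = 1.09e-07). It was at 0.796 ± 0.381 RPKM in GFP+ and 32.7 ± 3.61 RPKM in GFP- cells (-4.25 ± 0.25, adjusted p = 1.62e-08). The homeobox gene Meis1 was at 16.4 ± 1.53 RPKM in SIX2+ and 51.6 ± 5.9 RPKM in SIX2- cells (-1.60 ± 0.15, adjusted p = 2.05e-06), and at 5.34 ± 0.245 RPKM in GFP+ and 67.7 ± 0.526 RPKM in GFP- cells (-3.44 ± 0.15, adjusted p = 1.7e-09). Meis1 was the listed gene called in the interaction (1.84 ± 0.21, adjusted p = 0.00544): its difference between fractions was smaller in the SIX2 sort. Ret, the ureteric bud receptor, was lower in SIX2+ (-1.27 ± 0.29, adjusted p = 0.0052) and GFP+ cells (-0.95 ± 0.29, adjusted p = 0.0227), with levels of at most 2.52 RPKM in these 4 groups. Nrip1, a coregulator induced by retinoic acid, was lower in GFP+ (-0.74 ± 0.25, adjusted p = 0.0325) and in Tdt+ cells (-1.22 ± 0.29, adjusted p = 0.039). Nrip1 was also lower in SIX2+ than in GFP+ cells (-1.67 ± 0.25, adjusted p = 0.00301) and in SIX2- than in GFP- cells (-1.88 ± 0.25, adjusted p = 0.000875). It was at 0.988 ± 0.557 RPKM in SIX2+ and 1.84 ± 0.629 RPKM in SIX2- cells, against 8.79 ± 1.81 RPKM in unsorted NZC. In GFP+ and GFP- cells it was at 5.34 ± 1.61 and 9.37 ± 1.07 RPKM. The part of the preparation in these differences was not tested.

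**Figure D4:**
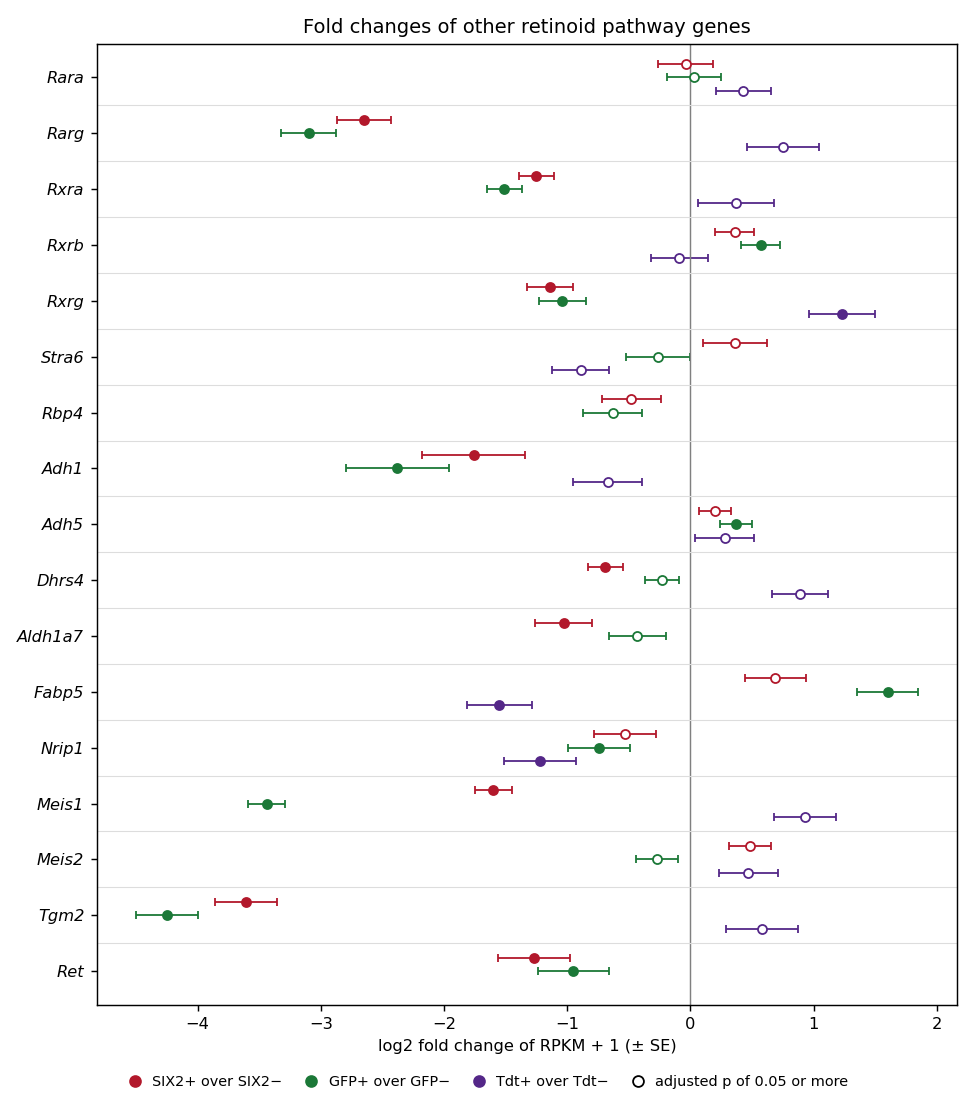
Log2 fold change of RPKM + 1 (x axis, ± SE) of selected other retinoid pathway genes in SIX2+ over SIX2-, GFP+ over GFP- and Tdt+ over Tdt- cells. Filled points were called; Tgm2 and Rarg lie far to the left in both E16.5 sorts, and Rxrg is the only filled point right of 0 in the Tdt comparison.

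Each fraction differed in its cell types as well as in these genes. Of 8 interstitial matrix genes (collagens, Dcn, Pdgfra and others), 8 were called lower in SIX2+ and in GFP+ cells. Their summed RPKM was 16.2 to 17.9 in SIX2+ and 1128 to 1749 in SIX2- libraries, and 18.9 to 37.8 in GFP+ and 2065 to 3141 in GFP- libraries. Of 8 cortical stroma genes, 8 were called lower in SIX2+ and 7 in GFP+ cells, with sums of 87.5 to 109.9 in SIX2+ and 383 to 533 in SIX2- libraries and of 95.1 to 113 in GFP+ and 639 to 738 in GFP- libraries. Mural, endothelial and leukocyte sums were also lower in both progenitor fractions, and the leukocyte sum was at most 7.36 RPKM in them, against at least 58.2 RPKM in the negative fractions. Of the matrix, stromal, mural, endothelial and leukocyte markers, Ren1 (mural) was listed at 0 in every SIX2+ library, and no other was at 0 throughout SIX2+ or GFP+ libraries. Nephron progenitor genes were called higher in 9 of 10 (SIX2+) and 8 of 10 (GFP+), podocyte genes lower in 6 and 5 of 6, tubule genes lower in 3 of 5 in both, and early nephron genes lower in 5 and 3 of 8 (with 2 higher in GFP+). Of 6 ureteric epithelium genes tested, 5 were called lower and 1 higher in both, and of 3 neural and glial genes 2 were called higher in both; no mesothelial gene passed the filter. Globin and other red cell genes summed to 11.3 to 50.9 RPKM in GFP+ and 817 to 8435 RPKM in GFP- libraries (6 of 6 called lower), and to at most 16.2 RPKM in SIX2+ and SIX2- libraries (0 called). The part of these cell types in the differences of the retinoic acid genes was not tested.

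At E14.5, 5 of the 7 cortical stroma genes tested were called higher in Tdt+ cells, with sums of 661 to 891 in Tdt+ and 355 to 365 in Tdt- libraries. The interstitial matrix sum was 1504 to 2245 in Tdt+ and 2380.5 to 3278 in Tdt- libraries, with 2 of 8 genes called lower, and none of 7 mural genes was called. Nephron progenitor sums were 44.6 to 74.9 in Tdt+ and 384 to 428 in Tdt- libraries, and endothelial sums 14.2 to 21.9 in Tdt+ and 63.9 to 88.5 in Tdt- libraries. Called lower in Tdt+ cells were 8 of 10 nephron progenitor, 7 of 8 early nephron, 6 of 6 podocyte, 4 of 6 endothelial, 4 of 5 leukocyte and 2 of 3 tubule genes, with 1 early nephron gene higher. Of 5 ureteric epithelium genes 1 was called lower, and of 2 neural and glial genes 1 was. Red cell genes summed to 10.5 to 108 RPKM in Tdt+ and 185 to 1514 RPKM in Tdt- libraries, with 0 of 5 called and a median log2 fold change of -3.86. Depth differed too, at 8450000 and 9420000 reads in Tdt+ and 26200000 and 30600000 in Tdt- libraries, and Rn45s was at 361 to 1928 RPKM in Tdt+ and 545 to 2716 RPKM in Tdt- libraries. The part of these values in the 5 calls was not tested. With no filter on low values, Crabp1 alone of the 9 genes was still called (adjusted p of the other 4 from 0.0529 to 0.0766). With 2 libraries per group, leaving out Tdt- library 1 or 2 ended the calls of Aldh1a2 (adjusted p = 0.398 and 0.322), Dhrs3 (0.209 and 0.185) and Rarb (0.425 and 0.345), the lone sample being assumed to vary like the other group. Their fold changes stayed at 2.14 and 2.32, 1.21 and 1.30, and 0.82 and 0.94.

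Genes with the most similar profiles were sought among 9709 genes by the root mean square (RMS) difference of log2 levels, each centred on its table's mean, over all 19 libraries. This is a description, since the libraries share their sorts. Nearest to Aldh1a2 were Pde9a (RMS difference 0.37), Foxd1 (0.40) and Shisa3 (0.42), where the profile of Aldh1a2 itself had an RMS of 0.80. Nearest to Crabp1 (own RMS 1.40) were Loxl1 (0.40), Igfbp6 (0.41) and Fam212a (0.42). Nearest to Dhrs3 (own RMS 1.0) were Slc2a3 (0.26), Tspan4 (0.27) and Eva1b (0.28), and nearest to Rarb (own RMS 0.70) were Alcam (0.19), Tmtc4 (0.21) and Ssfa2 (0.22). Rdh10 (own RMS 0.83) was nearest to Bend4 (0.30), Tcf24 (0.32) and Pgm2l1 (0.36), and Crabp2 (own RMS 0.55) to Flywch2 (0.30), Ctf1 (0.33) and Syce2 (0.33). Cyp26b1 (own RMS 0.84) was nearest to Adgrf5 (0.31), Shank3 (0.31) and Arap3 (0.34). Aldh1a1 (own RMS 0.44) was nearest to Prom1 (0.15), Il10rb (0.19) and Idh1 (0.21), at levels where the RPKM + 1 scale damps differences. Within the 9 genes, Dhrs3 and Rarb were the closest pair (0.46).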

How the data were processed

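The authors deposited 1 table of 15 E16.5 libraries and 1 of 4 E14.5 libraries, with 1 value per gene. RNA was isolated with RecoverAll and RNeasy Micro kits and libraries were made with a Kapa stranded kit, per the labels' protocols, which do not say which library had which isolation kit. TopHat2, Partek and mm10 are named, without versions, per the submitters' processing notes; which annotation was used is not given in the sources used here. As for units, the deposited values are taken as RPKM although titled TPM, because column sums are unequal (339454 to 429529 and 342196 to 453324), and low values times gene length step by what 1 read is worth. Depth was estimated from those steps; between 54.3% and 70.1% of a library's low values were whole to within 0.05 reads, so no count model was used. The tests had been designed for TPM and are the same for RPKM.

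Values were compared as log2(RPKM + 1) with limma 3.58.1 (eBayes with trend, two-sided) in R 4.3.3, among genes of at least 1 RPKM in at least 3 (E16.5, 12817 genes) or 2 libraries (E14.5, 12383 genes), with Benjamini-Hochberg adjustment over all of them. The 15 E16.5 libraries entered 1 fit of 5 group means. Tables were normalised separately, so tests stay within a table. Checks on simulated data were run in R with limma. Summaries used pandas 2.3.3 and numpy 2.4.6 in python 3.11.15, with figures from matplotlib 3.10.9. Each table held 27 names turned into dates, and lines of 1 symbol were summed.

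Replicate numbers come from the sample titles. Across genes, deviations from the group mean of libraries with the same number correlated for SIX2+ and SIX2- (0.64, 0.28 and 0.68), GFP+ and GFP- (0.45, 0.44 and 0.39) and SIX2- and GFP- libraries (0.46, 0.44 and 0.55), so there the numbers were taken to pair the samples, but not for SIX2+ and GFP+ libraries (0.40, -0.02 and 0.58).

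The genes, the 38 other pathway genes, the marker lists and the rules were chosen with earlier results of these data known. All 9 genes are named in every comparison, other pathway genes where called in 1 of the 3 fraction comparisons (Rara was added after its values were seen), and 3 nearest profiles for each gene called, among genes with a group mean of at least 5 RPKM, leaving out predicted genes. Alternatives were other pseudocounts, filters, scalings and sample sets, a replicate block and leaving out each library.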

Additional observations from a re-analysis of the deposited data

How the results depend on the processing

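Of the calls among the 9 genes, those of Crabp1, Dhrs3, Rarb and Rdh10 in the SIX2 and GFP sorts and of Aldh1a2 in the SIX2 sort kept their direction and their side of the threshold under every alternative run. The number of all genes called moved more. With a replicate block it was 6770 (SIX2 sort, 3109 without), 6846 (GFP sort, 4219 without), 2307 (Tdt, 1044 without), 1324 (SIX2+ against GFP+, 394 without), 5541 (SIX2- against GFP-, 1296 without) and 419 (interaction, 18 without), and the block changed no call of the 9 genes other than those named in the report and Aldh1a3 in SIX2+ against GFP+ (-0.83, adjusted p = 0.00225); called genes were then 4 in SIX2- against GFP- and 2 in the interaction. The numbers do not mark fractions of the same kidneys across the SIX2 and GFP sorts. This limits the block in SIX2+ against GFP+, in SIX2- against GFP- and in the interaction. For Tdt, with 2 pairs, whether the numbers pair the libraries could not be determined (deviations correlated at 0.40 in both). With only the compared groups fitted, SIX2+ against GFP+ had 821 calls, SIX2- against GFP- 2801 and the interaction 138; without NZC library 2 they had 985, 3266 and 91. Calls in the Tdt comparison were 229 with no filter, with 1 of the 9 genes left, and 522 at values of at least 5. The interaction had 38 calls at a pseudocount of 5, 11 unfiltered and 9 with TPM. Leaving out 1 library gave 337 to 3336 calls for Tdt (1 to 6 of the 9 genes), 132 to 466 for SIX2+ against GFP+ (1 to 3), 204 to 973 for SIX2- against GFP- (1 to 2) and 1 to 25 for the interaction. Scaling moved the split into higher and lower calls: 1578 and 1574 (quantile, SIX2 sort) against 1073 and 2036, 1397 and 2532 (TPM, GFP sort) against 2035 and 2184, 239 and 483 (quantile, Tdt) against 151 and 893, and 498 and 824, 225 and 649, and 363 and 832 (quantile, TPM and median-of-ratios, SIX2- against GFP-) against 730 and 566; the interaction had 8 and 7, 4 and 5, and 7 and 7 against 6 and 12. Signs turned only in uncalled genes. Quantile scaling gave 0.28 for Aldh1a3 in the GFP sort, 0.24 for Cyp26b1 in Tdt and -0.06 for Crabp2 in SIX2- against GFP-, which was -0.13 with TPM and -0.05 with median-of-ratios scaling. Leaving out 1 library gave -0.15 to 0.30 for Crabp2 in the SIX2 sort, -0.31 to 0.28 for Aldh1a3 in the GFP sort, -0.49 to 0.09 for Cyp26b1 in Tdt, and -0.04 to 0.01 for Aldh1a1 in SIX2+ against GFP+. In SIX2- against GFP- it gave -0.20 to 0.30 for Crabp2 and -0.30 to 0.30 for Aldh1a3. The cause of these changes was not tested. Depth limits the low genes Aldh1a1, Aldh1a3 and Cyp26b1, and no counting interval can be given for RPKM.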
